A study of Rattus norvegicus with 12 samples.

Results

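Transcription factors of heart development and heart muscle growth, Gata4, Gata6, Nkx2-5, Tbx5, Tbx20, Mef2a, Mef2c, Mef2d, Hand2 and Foxc2, were followed by symbol in the deposited count table. All 10 were found, each in 1 row of the 32883 genes, and all 10 were among the 14063 genes that passed the filter on low counts. RNA came from primary ventricular heart muscle cells of newborn rats, sampled 2 days after an adenovirus brought in its cargo. The cargo was bacterial LacZ, the control, or human KAT6A in its wild-type form (WT), as K815R, which resists acetylation at the changed lysine, or as K815Q, which mimics it. Each group had 3 libraries, and every group, LacZ included, had received a virus, so no uninfected cells enter these comparisons. The labels do not say whether the 3 libraries of a group came from separate cell preparations, so p-values measure only the spread between these libraries. KAT6A, also called MOZ, is an acetyltransferase of histone tails.

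These factors work as a network. GATA4, NKX2-5, TBX5, HAND2 and the MEF2 proteins bind near one another at the control regions of heart muscle genes, where they recruit one another and shared coactivators. They lay down the heart in the embryo, and in the newborn cell they keep the contractile programme running and respond to growth signals. FOXC2 belongs to another branch, the forkhead factors of mesenchyme, vessels and outflow tract.

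Gene counts ran from 19102048 to 25451686 per library. Levels are given as CPM, read counts scaled to library size after TMM normalization, and the members were covered by 199 to 6615 reads in each library. The markers of the labelled cell type were high in every library: 11 of 12 listed cardiomyocyte markers were matched, and their summed level lay between 48378 and 54842 CPM. Fibroblast markers summed to 11004 to 12842 CPM and smooth muscle and pericyte markers to 4017 to 4582 CPM, so markers of other cell types were present as well. In bulk RNA, fewer cells of a type and less RNA per cell cannot be told apart. Kat6a itself had 48.1 ± 4.75 CPM with LacZ, 93.0 ± 12.3 with WT and 108 ± 11.7 with K815R, but 46.3 ± 3.35 with K815Q (SD, n = 3). The K815Q libraries thus did not show the rise that their label calls for, and they are named below as the libraries labelled K815Q. Prkaa2, the gene of a catalytic subunit of the energy sensor AMPK, differed more than Kat6a did. It had 60.9 ± 10.2 CPM with LacZ, 519 ± 102 with WT, 87.2 ± 8.70 with K815R and 1168 ± 55.4 with labelled K815Q (SD, n = 3), so it rose 8.51-fold in WT and 19.2-fold in the libraries labelled K815Q over LacZ (adjusted p 2.51e-05 and 4.06e-06, edgeR). Every statement on WT or labelled K815Q below depends on the labels being right, and the part of Prkaa2 in any result was not tested.

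Few of these genes passed the test, and most did so in no comparison. The threshold for a call was an adjusted p below 0.05 in edgeR's quasi-likelihood fit over all 12 libraries, adjusted over all 14063 genes. Over the 6 pairwise comparisons 4 calls were made, all of a higher level: Hand2 in K815R against LacZ, Gata6 in the libraries labelled K815Q against LacZ, and Foxc2 in the libraries labelled K815Q against both LacZ and WT. WT against LacZ gave 0 of 10, where 5.34% of all genes were called. K815R against LacZ gave 1 of 10 (2.47% of all genes), and labelled K815Q against LacZ 2 of 10 (7.85%). Between groups other than LacZ, K815R against WT gave 0 of 10 (2.20%), labelled K815Q against WT 1 of 10 (1.07%), and K815R against labelled K815Q 0 of 10 (0.363%). With counts of 0 to 2 among 10, these shares are no more than a description. Among the comparisons with a count of 0, an unadjusted p under 0.05 was reached by 1 member in WT against LacZ (19.1% of all genes). It was reached by 3 members in K815R against WT (13.8%) and by 4 in K815R against labelled K815Q (11.4%). DESeq2 called 0, 1 and 0 members in these, beside 655 of 13752, 266 of 12020 and 96 of 12454 genes. The joint 4-group test called Hand2 and Foxc2, 2 of 10, where 8.13% of all genes were called. Foxc2 kept that call in every alternative, while Hand2 lost it under DESeq2 and in 7 of 12 fits that left out 1 library (LacZ replicate 2 or 3, WT replicate 2 or 3, K815R replicate 1 or 3, or labelled K815Q replicate 1).

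The sizes were small except for Foxc2. Over the 10 members, the log2 fold change against LacZ ran from -0.05 to 0.15 for WT, from -0.14 to 0.47 for K815R and from -0.34 to 0.78 for labelled K815Q. The medians were 0.03, 0.06 and 0.06, beside 0.01, 0.00 and 0.01 over all genes tested. These 3 comparisons share the LacZ libraries, so a LacZ library that is high or low moves all of them.

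**Figure D1:**
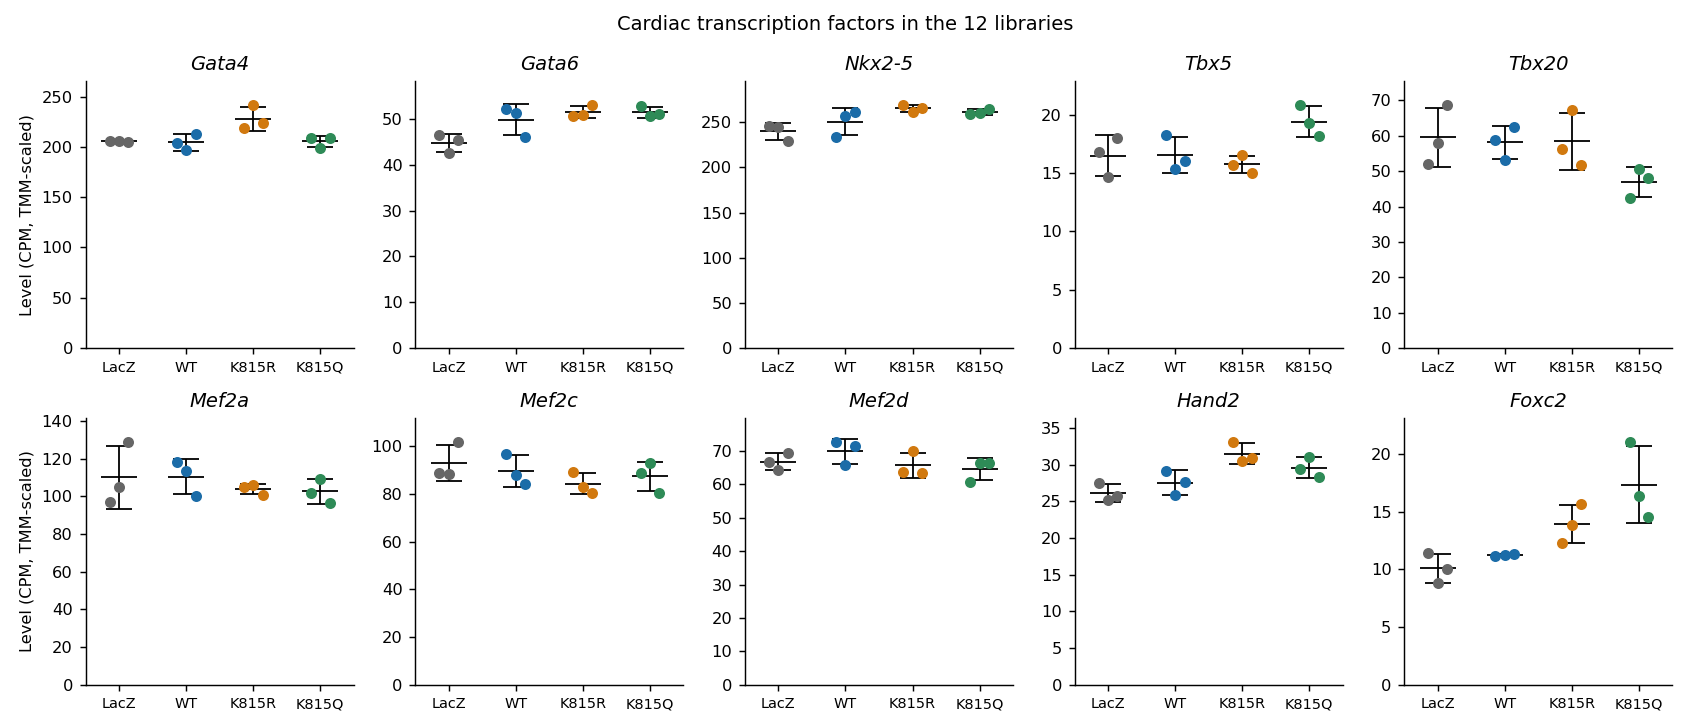
Level of each of the 10 factors in CPM (y axis, from 0, scaled per panel) in the 12 libraries by group (x axis); points are libraries, black bars the mean ± SD of 3, and K815Q names the libraries so labelled. Foxc2 runs from 8.87 CPM in a LacZ library to 21.1 CPM in a library labelled K815Q, a ratio of 2.37, while the highest library exceeds the lowest by at most 1.62-fold in the other panels.

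The GATA factors are zinc finger proteins that open and activate heart muscle genes; Gata4 also carries the response to growth stimuli, and Gata6 acts beside it in muscle and outflow tract. Gata4 (ENSRNOG00000010708) had 206, 205 and 204 CPM with LacZ, 204, 196 and 213 with WT, 218, 241 and 223 with K815R and 208, 199 and 208 with labelled K815Q. All 3 K815R libraries lay above the 9 others. The log2 fold change in K815R was 0.15 against LacZ (SE 0.0490, adjusted p 0.122), 0.16 against WT (SE 0.0491, adjusted p 0.110) and 0.15 against labelled K815Q (SE 0.0492, adjusted p 0.206, all edgeR), and none was called. DESeq2 called the comparison with WT (0.16, adjusted p 0.0431) and no other alternative did.

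Gata6 (ENSRNOG00000023433) had 46.4, 42.6 and 45.4 CPM with LacZ, 52.2, 51.4 and 46.1 with WT, 50.6, 51.0 and 53.0 with K815R and 52.9, 50.6 and 51.1 with labelled K815Q. LacZ was the lowest group, and only 1 WT library fell within its range. In the libraries labelled K815Q it rose 1.15-fold over LacZ (log2 fold change 0.20, SE 0.0584, adjusted p 0.0378, edgeR). K815R had the same log2 fold change of 0.20 (SE 0.0579) and missed the threshold (adjusted p 0.0688, edgeR), and WT had 0.15 (SE 0.0584, adjusted p 0.138, edgeR). Between K815R and labelled K815Q no difference was called: the 95% interval of K815R minus labelled K815Q ran from -0.12 to 0.12. The call was lost under DESeq2 (0.20, adjusted p 0.0509) and in 5 of 12 edgeR fits that left out 1 library. Without LacZ replicate 2 the value was 0.17, without LacZ replicate 3 it was 0.21, without K815R replicate 3 it was 0.20, and without labelled K815Q replicate 1 or 3 it was 0.18 or 0.21. The summed cardiomyocyte markers overlapped between LacZ, at 48378 to 51487 CPM, and labelled K815Q, at 50115 to 52590 CPM. The macrophage sum was higher in labelled K815Q without overlap, at 64.9 to 70.6 CPM against 48.8 to 63.0 CPM with LacZ. So was the Schwann cell sum, at 4.01 to 4.77 CPM against 3.16 to 3.70 CPM. The sums of the other marker lists overlapped. The part of these in the Gata6 result was not tested.

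The bases upstream of Gata6 and Hand2 are shown because these are the called members whose promoters the RefSeq table used here holds; it held 7 of the 10 members. The table is of build GRCr8, and positions count back from the annotated start. Each promoter was searched on both strands over 250 bases for 6 short motifs, and capitals mark matches: AGATAA for GATA factors, TNAAGTG for NKX2-5, AGGTGT for T-box factors, TAAAAATA for MEF2, CANNTG (the E-box) for basic helix-loop-helix factors such as HAND2, and TAAACA for forkhead factors. Among 33469 promoters of that length, 10.3% held the GATA motif, 9.89% the NKX2-5 motif, 11.6% the T-box motif, 2.44% the MEF2 motif, 65.5% an E-box and 12.1% the forkhead motif. The Gata6 window (chr18:2460659-2460908, plus strand) held none of these letters.

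Gata6: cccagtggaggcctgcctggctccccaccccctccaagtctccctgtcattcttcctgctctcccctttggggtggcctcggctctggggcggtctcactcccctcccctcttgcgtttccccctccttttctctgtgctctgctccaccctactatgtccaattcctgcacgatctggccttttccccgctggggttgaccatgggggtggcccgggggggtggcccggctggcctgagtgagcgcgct

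Nkx2-5 is the homeobox factor that marks heart progenitors and partners GATA4. Nkx2-5 (ENSRNOG00000020747) had 246, 244 and 229 CPM with LacZ, 233, 257 and 262 with WT, 269, 261 and 266 with K815R and 259, 260 and 265 with labelled K815Q. The K815R libraries and those labelled K815Q lay wholly above LacZ, and WT overlapped every other group. The log2 fold changes against LacZ were 0.15 in K815R (SE 0.0497, adjusted p 0.150) and 0.12 in the libraries labelled K815Q (SE 0.0498, adjusted p 0.125, both edgeR). Neither was called, here or in any alternative run.

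The T-box factors differed from LacZ in opposite directions in the libraries labelled K815Q, without a call for either. Tbx5 drives chamber and conduction genes, and Tbx20 keeps adult heart muscle function and acts as both activator and repressor. Tbx5 (ENSRNOG00000001399) had 16.8, 14.6 and 18.0 CPM with LacZ, 18.3, 15.3 and 16.0 with WT, 15.7, 16.5 and 15.0 with K815R and 20.8, 19.2 and 18.1 with labelled K815Q. The last group lay above LacZ and K815R, while its lowest library lay within the WT range. The log2 fold change was 0.23 against LacZ (SE 0.0875, adjusted p 0.101) and 0.23 against WT (SE 0.0890, adjusted p 0.227), and K815R minus labelled K815Q was -0.30 (SE 0.0885, adjusted p 0.153, all edgeR). None was called, except the last in the fit without a filter on low counts (-0.29, adjusted p 0.0496, edgeR). Without LacZ replicate 2 the value against LacZ was 0.15.

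Tbx20 (ENSRNOG00000016181) had 52.2, 58.0 and 68.6 CPM with LacZ, 58.8, 53.1 and 62.5 with WT, 56.2, 67.3 and 51.8 with K815R and 42.4, 50.6 and 48.0 with labelled K815Q. The libraries labelled K815Q were the 3 lowest of the 12, and the other groups overlapped one another. The log2 fold change was -0.34 against LacZ (SE 0.121, adjusted p 0.111) and -0.31 against WT (SE 0.122, adjusted p 0.285), and K815R minus labelled K815Q was 0.32 (SE 0.122, adjusted p 0.361, all edgeR). These were not called. The first was called by DESeq2 (-0.35, adjusted p 0.0206) and without LacZ replicate 1 (-0.43, adjusted p 0.0427, edgeR), and the second when just the 6 libraries of that pair were fitted (-0.30, adjusted p 0.0308, edgeR). The first shrank to -0.23 without LacZ replicate 3 (adjusted p 0.302, edgeR) and to -0.27 without labelled K815Q replicate 1 (adjusted p 0.335, edgeR), and the difference between K815R and labelled K815Q to 0.20 without K815R replicate 2.

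Hand2 is a basic helix-loop-helix factor needed for the growth of the right ventricle. Hand2 (ENSRNOG00000060448) had 27.5, 25.1 and 25.7 CPM with LacZ, 29.2, 25.8 and 27.7 with WT, 33.1, 30.5 and 30.9 with K815R and 29.4, 31.1 and 28.3 with labelled K815Q. The K815R libraries lay above all LacZ and WT libraries, and the libraries labelled K815Q, between 28.3 and 31.1, lay above LacZ but overlapped both WT and K815R. It rose 1.20-fold in K815R over LacZ (log2 fold change 0.27, SE 0.0666, adjusted p 0.0295, edgeR). The libraries labelled K815Q had 0.18 against LacZ (SE 0.0676, adjusted p 0.102), and K815R minus WT was 0.19 (SE 0.0672, adjusted p 0.165, both edgeR); neither was called. The call in K815R held in all 7 changes of scaling, filter, tool, block or sample set, and was lost in 4 of 12 fits that left out 1 library: 0.24 without LacZ replicate 2, 0.26 without LacZ replicate 3, 0.23 without K815R replicate 1 and 0.28 without K815R replicate 3. The summed cardiomyocyte markers were higher too, without overlap, at 53207 to 54842 CPM with K815R against 48378 to 51487 CPM with LacZ, with a median log2 fold change of 0.07 over the 11. The macrophage sum was higher without overlap as well, at 64.6 to 69.0 CPM against 48.8 to 63.0 CPM, with a median log2 fold change of 0.22. The fibroblast sum was lower without overlap, at 11103 to 11547 CPM against 11862 to 12730 CPM. The median log2 fold change of the 9 fibroblast markers was only -0.01, and 0 were called. The part of these in the Hand2 result was not tested.

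The Hand2 window (chr16:37931489-37931738, minus strand) held 2 E-box matches, 1 forkhead match that runs into the second of them, and 1 match of the GATA motif, read on the other strand, from 172 to 167 bases before the start. A match is a description of letters and says nothing of binding in these cells.

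Hand2: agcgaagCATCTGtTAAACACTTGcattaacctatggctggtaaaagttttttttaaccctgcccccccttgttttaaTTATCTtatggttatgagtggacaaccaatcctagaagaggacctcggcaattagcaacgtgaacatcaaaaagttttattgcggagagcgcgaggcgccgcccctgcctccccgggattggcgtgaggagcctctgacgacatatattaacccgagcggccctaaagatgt

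The MEF2 factors, MADS box proteins held in check by class IIa histone deacetylases until growth or calcium signals release them, gave no called difference. Mef2a (ENSRNOG00000047756) had 96.8, 105 and 129 CPM with LacZ, 118, 113 and 100.1 with WT, 105, 106 and 101 with K815R and 102, 109 and 96.5 with labelled K815Q. Mef2c (ENSRNOG00000033134) had 88.9, 88.2 and 102 CPM with LacZ, 96.8, 88.0 and 84.0 with WT, 89.1, 83.0 and 80.5 with K815R and 88.5, 92.7 and 80.5 with labelled K815Q. Mef2d (ENSRNOG00000031778) had 66.7, 64.4 and 69.4 CPM with LacZ, 72.7, 65.7 and 71.4 with WT, 63.6, 70.1 and 63.4 with K815R and 60.8, 66.6 and 66.3 with labelled K815Q. For each of the 3 genes all groups overlapped, and LacZ replicate 3 was the highest LacZ library in all of them. Mef2c in K815R came nearest to a difference, with a log2 fold change of -0.14 against LacZ (SE 0.0666, adjusted p 0.342, edgeR), and it was called in no alternative. Leaving out LacZ replicate 3, the value was -0.07. The Mef2a window (chr1:130392163-130392412, minus strand) is shown because it holds the MEF2 motif, from 39 to 32 bases before the start, and was the 1 member promoter of 7 to do so.

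Mef2a: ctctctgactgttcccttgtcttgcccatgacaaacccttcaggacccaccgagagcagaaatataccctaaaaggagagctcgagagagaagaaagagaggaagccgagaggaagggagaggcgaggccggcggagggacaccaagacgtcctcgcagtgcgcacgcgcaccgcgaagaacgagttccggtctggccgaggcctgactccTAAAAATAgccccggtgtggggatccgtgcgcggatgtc

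Foxc2 showed the clearest change of the 10. It is a forkhead factor of mesenchyme, developing vessels and lymphatic valves rather than of the muscle cell programme. Foxc2 (ENSRNOG00000047446) had 11.4, 8.87 and 10.0 CPM with LacZ, 11.2, 11.2 and 11.3 with WT, 12.3, 13.9 and 15.7 with K815R and 21.1, 16.4 and 14.6 with labelled K815Q. The order of the means was LacZ, WT, K815R and labelled K815Q. WT overlapped LacZ, K815R lay above both, and K815R and labelled K815Q overlapped. It rose 1.72-fold in the libraries labelled K815Q over LacZ (log2 fold change 0.78, SE 0.122, adjusted p 6.66e-04, edgeR). This call held in every alternative, and leaving out 1 library gave 0.62 to 0.89. Over WT the rise was 1.54-fold (0.63, SE 0.123, adjusted p 0.0158, edgeR). That call was lost in the 4 fits without WT replicate 1 (0.62), WT replicate 2 (0.63), WT replicate 3 (0.63) or labelled K815Q replicate 1 (0.47), and it held in the other alternatives.

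In K815R, Foxc2 stood 1.38-fold above LacZ at the edge of the threshold (log2 fold change 0.47, SE 0.123, adjusted p 0.0512, edgeR). It was called in 5 of 7 changes of scaling, filter, tool or model; DESeq2, for one, gave 0.46 (adjusted p 0.0465). Of the 12 fits that left out 1 library, 4 called it: those without LacZ replicate 1 (0.56), K815R replicate 1 (0.54), labelled K815Q replicate 1 (0.47) or labelled K815Q replicate 3 (0.47). Over all 12 the value ran from 0.38 to 0.56. K815R minus labelled K815Q was -0.31 with a 95% interval, not adjusted for the number of genes, from -0.56 to -0.06 (adjusted p 0.314, edgeR), and -0.15 without labelled K815Q replicate 1. WT minus LacZ was 0.15 with an interval from -0.12 to 0.42 (adjusted p 0.581, edgeR).

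**Figure D2:**
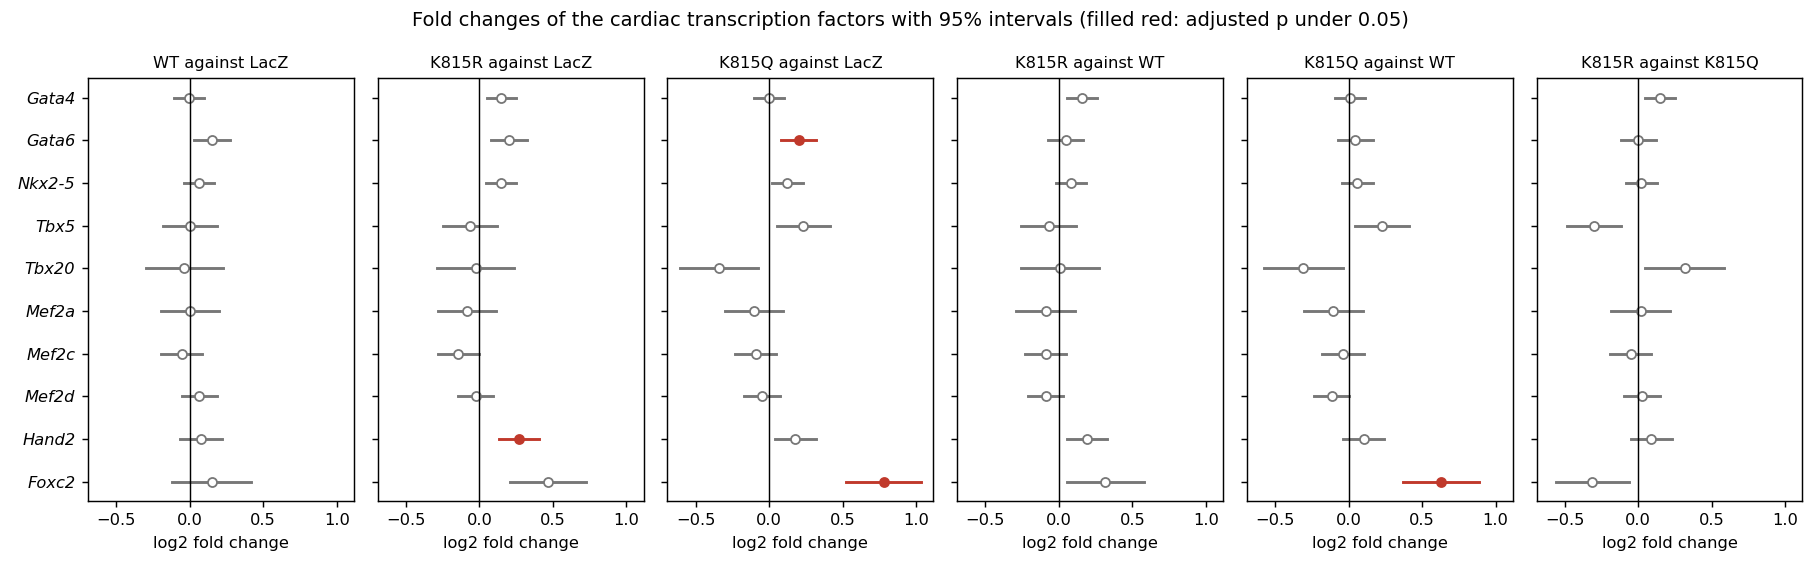
Log2 fold change (x axis) of each of the 10 factors (y axis) in the 6 pairwise comparisons, with 95% intervals that are not adjusted for the number of genes; filled red points passed an adjusted p of 0.05. The 4 red points are Hand2 in K815R against LacZ, Gata6 in labelled K815Q against LacZ, and Foxc2 in labelled K815Q against LacZ and WT.

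The CPM ranges of the groups give a view without a model. In WT against LacZ, 0 of 10 members had ranges that did not overlap, where 24.6% of all genes did. In K815R against LacZ there were 5 of 10 (Gata4, Gata6, Nkx2-5, Hand2 and Foxc2, all higher; 18.7% of all genes), and in labelled K815Q against LacZ 6 of 10 (28.4%). The last 6 were Gata6, Nkx2-5, Tbx5, Hand2 and Foxc2 on the higher side and Tbx20 on the lower. Between groups other than LacZ there were 3 of 10 in K815R against WT (19.0%), 2 of 10 in labelled K815Q against WT (19.3%) and 3 of 10 in K815R against labelled K815Q (16.0%). Gata6, Nkx2-5, Hand2 and Foxc2 did not overlap LacZ in K815R or in the libraries labelled K815Q. Both comparisons use the same LacZ libraries, and the share of all genes that stood apart in both was not counted. Mef2a, Mef2c and Mef2d overlapped in every comparison.

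Markers of the other cell types that could carry Foxc2 were read in the same libraries. The 9 matched endothelial markers summed to 222 to 248 CPM in LacZ and 190 to 255 CPM in the libraries labelled K815Q, with a median log2 fold change of -0.11. The 7 lymphatic endothelial markers summed to 248 to 266 CPM in LacZ and 225 to 251 in the libraries labelled K815Q. Of these, Flt4, the receptor for lymphatic growth factors, and Reln fell (log2 fold changes -0.30 and -0.48, adjusted p 0.0191 and 0.0342, edgeR). They were 33.3% of the 6 tested, where 7.85% of all genes were called, and the median of the list was -0.10. Fibroblast markers summed to 11862 to 12730 CPM in LacZ and 11948 to 12842 in the libraries labelled K815Q. The median log2 fold change of the 9 was -0.02. Of them 2, Postn and Tcf21, rose (log2 fold changes 0.20 and 0.53, adjusted p 0.0421 and 0.00236, edgeR), 22.2% of the list beside 7.85% of all genes. Epicardial and mesothelial markers summed to 51.5 to 57.4 CPM and 55.5 to 58.2 CPM in these groups, with a median log2 fold change of 0.13. Macrophage markers summed to 48.8 to 63.0 CPM in LacZ and 64.9 to 70.6 CPM in the libraries labelled K815Q, without overlap. Their median log2 fold change was 0.27, while 1 of the 8 (12.5%), Adgre1, fell (-0.55, adjusted p 0.0356, edgeR). Of the smooth muscle and pericyte markers, Pdgfrb rose (0.21, adjusted p 0.0410, edgeR), and the sums overlapped. The median log2 fold change of that list was -0.01, with 14.3% called. The Schwann cell markers summed to 3.16 to 3.70 CPM with LacZ and 4.01 to 4.77 CPM with labelled K815Q. No defining marker of these lists was at 0 in any group. The endothelial, lymphatic and fibroblast sums of the libraries labelled K815Q thus overlapped those of LacZ, while the macrophage and Schwann cell sums lay above them. The part of either in the Foxc2 result was not tested.

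On GRCr8, Foxc2 lies between Mthfsd and Foxl1, and no annotated gene overlaps it. Mthfsd stood at 3.04 ± 0.418 CPM in LacZ and 2.93 ± 0.291 CPM in the libraries labelled K815Q, and Foxl1, another forkhead gene, at 0.490 ± 0.222 and 0.775 ± 0.142 CPM (SD, n = 3). Neither was called in any comparison (adjusted p 0.874 and 0.242 here, edgeR). Gata4 and Mef2c each overlap 1 annotated gene, neither of which was matched in the count table by symbol.

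The genes nearest to each called member were found by the root mean square difference of log2 CPM over the 12 libraries, each gene centred on its own mean, among 10260 genes of at least 5 CPM. Nearest to Foxc2 were Id1 (0.15), an inhibitor of helix-loop-helix factors, Irx3 (0.17), an Iroquois homeobox factor of ventricular conduction, and Klf2 (0.18), a zinc finger factor of endothelium. Id1 had 33.7, 35.9 and 32.5 CPM with LacZ, 33.8, 38.0 and 33.8 with WT, 46.4, 45.5 and 49.6 with K815R and 61.1, 46.4 and 42.1 with labelled K815Q. The single library highest in Foxc2, labelled K815Q replicate 1, was also the highest in Id1 and Irx3. Klf2 had 9.05, 10.2 and 8.28 CPM with LacZ, 10.0, 10.2 and 10.6 with WT, 13.1, 12.9 and 14.7 with K815R and 14.8, 14.6 and 14.8 with labelled K815Q. Nearest to Hand2 were Fam220a (0.05), LOC100360791 (0.06) and Rhog (0.06), and nearest to Gata6 were Coa3 (0.05), Rbm7 (0.05) and Snrpf (0.05). Genes that change little lie near one another by this measure, so these last values say less than those of Foxc2.

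The wider network of heart transcription factors was read from a list of 47 genes, of which 43 were tested. Against LacZ, 1 was higher in WT (2.33% of the list, beside 5.34% of all genes), 2 were higher in K815R (4.65% beside 2.47%), and 5 were higher and 1 lower in the libraries labelled K815Q (14% beside 7.85%). K815R exceeded WT in 1, Foxc1 (2.33% beside 2.20%). The median log2 fold change of the list against LacZ was 0.08, 0.08 and 0.03. In the libraries labelled K815Q the higher genes were Irx1, Irx3, Irx4 and Irx5, which pattern the ventricle, and Tcf21. Tcf21 is a factor of fibroblasts and epicardium that is also on the fibroblast list. Irx2, also among the 47, was not among the called genes of any comparison. The lower gene was Nfatc3, a calcineurin-responsive factor (log2 fold change -0.30, adjusted p 0.0252, edgeR). Nfatc3 was not called without LacZ replicate 2 (-0.31) or 3 (-0.26), or without labelled K815Q replicate 1 (-0.23) or 3 (-0.28).

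Of the Iroquois genes, Irx4, the ventricular member, had 94.5, 97.9 and 95.8 CPM with LacZ, 113, 118 and 114 with WT, 103, 104 and 114 with K815R and 127, 111 and 124 with labelled K815Q. The 9 libraries of the other groups all lay above LacZ. Its log2 fold change over LacZ was 0.26 for WT (adjusted p 0.00537) and 0.33 for labelled K815Q (adjusted p 7.04e-04, both edgeR), and both calls held in every alternative. Irx3 rose in the libraries labelled K815Q by 0.43 (adjusted p 0.00143) and Irx5 by 0.38 (adjusted p 0.00274, both edgeR), again in every alternative. Irx1 rose there by 0.41 (adjusted p 0.0102, edgeR), a call lost without labelled K815Q replicate 1 (0.38). The call of Irx3 in K815R (0.29, adjusted p 0.0426, edgeR) held in only 3 of 12 fits that left out 1 library, with values from 0.26 to 0.34.

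Foxc1, the close relative of Foxc2, had its highest level in another group. It had 6.37, 5.08 and 5.82 CPM with LacZ, 6.34, 6.51 and 5.99 with WT, 8.50, 8.83 and 9.17 with K815R and 6.86, 7.06 and 6.67 with labelled K815Q. The K815R libraries were the 3 highest, where for Foxc2 the highest mean was in the libraries labelled K815Q. Foxc1 rose in K815R over LacZ (log2 fold change 0.62, SE 0.102, adjusted p 0.00113, edgeR), in every alternative. It rose over WT by 0.49 (adjusted p 0.0128, edgeR), a call lost without WT replicate 3 (0.46) or K815R replicate 3 (0.47). Whether the 2 genes differ in their response was not tested.

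**Figure D3:**
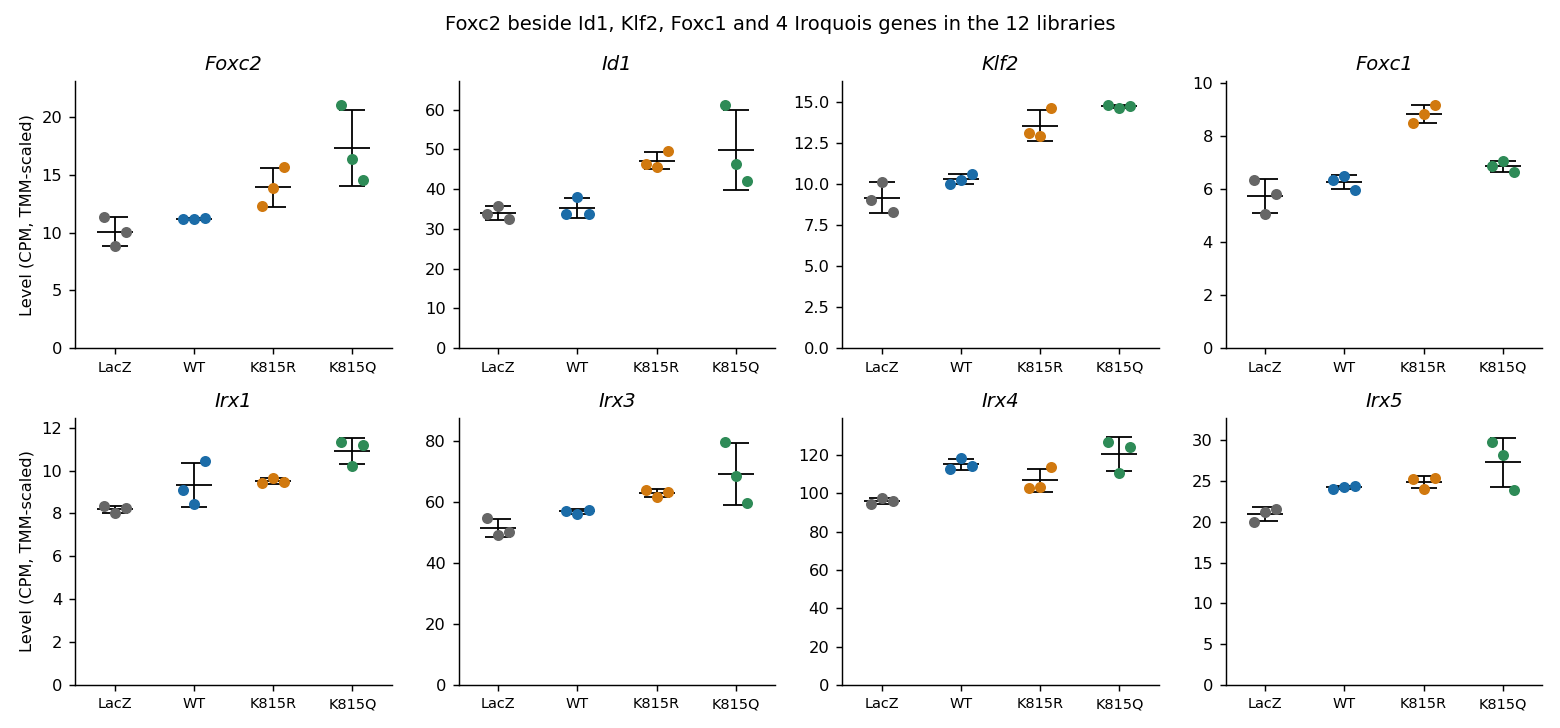
Level in CPM (y axis, from 0, scaled per panel) of Foxc2, Id1, Klf2, Foxc1 and 4 Iroquois genes in the 12 libraries by group (x axis); points are libraries, bars the mean ± SD of 3, and K815Q names the libraries so labelled. Foxc1 is highest in K815R, at 8.50 to 9.17 CPM, and Foxc2 in the libraries labelled K815Q, at 14.6 to 21.1 CPM.

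Among the forkhead genes of classes C, D, F, L, Q and S, 6 of 10 were tested. Besides Foxc1, Foxd1 was called as higher in K815R than in LacZ and WT, from 11 to 25 reads per library against 1 to 5, a level at which no fold is given. DESeq2 gave no adjusted p for Foxd1 in K815R against WT. Foxs1 rose in the libraries labelled K815Q over LacZ (0.34, adjusted p 0.0285, edgeR), a call lost without LacZ replicate 2 (0.24) or 3 (0.36), or without labelled K815Q replicate 1 (0.30) or 3 (0.35). Foxf1 fell in WT against LacZ (-1.36, adjusted p 0.0154, edgeR), on 6 to 13 reads against 28 to 33, and was not called without WT replicate 3 (-1.05).

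Of 21 tested partners and regulators of MEF2 and GATA4, among them the class IIa deacetylases, the CaM kinases and calcineurin, 1 was called, Rcan1, the calcineurin inhibitor that calcineurin signalling itself induces. It had 425 ± 26.6 CPM with LacZ, 349 ± 5.75 with WT, 421 ± 33.7 with K815R and 365 ± 31.5 with labelled K815Q (SD, n = 3). Against LacZ it fell by 0.28 in WT and by 0.22 in the libraries labelled K815Q (log2, adjusted p 0.00991 and 0.0390), and K815R exceeded WT by 0.27 (adjusted p 0.0304, all edgeR). Each of these was 4.76% of the list, beside 5.34%, 7.85% and 2.20% of all genes. The first call was lost without LacZ replicate 1 (-0.23). The second held in 4 and the third in 8 of the 12 fits that left out 1 library, with ranges from -0.27 to -0.15 and from 0.20 to 0.31.

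Genes known as targets of these factors changed in both directions. Of 41 tested, 3 were higher (Ckm, Pln and Mb) and 1 lower (Nppb) in WT against LacZ, 2 higher (Ankrd1 and Klf2) and 1 lower (Gja5) for K815R, and 4 higher (Ckm, Pln, Klf2 and Mb) and 3 lower (Nppb, Acta1 and Xirp2) for labelled K815Q. These were 9.76%, 7.32% and 17.1% of the list, beside 5.34%, 2.47% and 7.85% of all genes. Between groups other than LacZ, 5 were higher (Nppa, Nppb, Myh7, Ankrd1 and Klf2) and 1 lower (Mb) in K815R against WT, 1 was higher (Klf2) in labelled K815Q against WT, and 2 were higher (Nppb and Myh7) and 2 lower (Gja5 and Mb) in K815R against labelled K815Q. These were 14.6%, 2.44% and 9.76% of the list, beside 2.20%, 1.07% and 0.363% of all genes. Nothing particular to the list is read from these shares. The list's median log2 fold change lay between -0.02 and 0.06 in the 6 comparisons. Klf2, a MEF2 target, rose over LacZ by 0.57 with K815R and by 0.69 with labelled K815Q (adjusted p 6.66e-04 and 4.80e-05, edgeR), both in every alternative. Xirp2, a muscle adhesion protein gene, fell in the libraries labelled K815Q by 0.43 (adjusted p 6.66e-04, edgeR), and Mb, myoglobin, rose there by 0.36 (adjusted p 0.00267, edgeR), both again in every alternative. Nppb, the natriuretic peptide gene that GATA4 activates, exceeded WT by 0.45 and labelled K815Q by 0.42 in the K815R libraries (adjusted p 5.96e-04 and 0.00293, edgeR), in every alternative. Gja5, a gap junction gene that TBX5 and NKX2-5 activate, had a log2 fold change of -0.50 between K815R and labelled K815Q (adjusted p 0.0122, edgeR), and this was lost without K815R replicate 3 (-0.43) or labelled K815Q replicate 1 (-0.42). Myh7, the slow myosin heavy chain, exceeded WT by 0.37 in K815R (adjusted p 0.0388, edgeR), in 5 of 12 fits that left out 1 library, from 0.33 to 0.42. Against LacZ, the call of Acta1 in labelled K815Q was lost under upper-quartile scaling (-0.33) and with the replicate block (-0.34). That of Ankrd1 in K815R was lost without a filter (0.46). Acta1, Ankrd1, Nppa, Nppb, Ckm, Pln, Mb, Gja5, Klf2 and Myh7 each had a call that was lost when 1 library was left out.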

How the data were processed

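Poly(A) RNA of 12 libraries was sequenced. The authors deposited 1 table of raw counts per gene, with Ensembl identifiers and symbols. Trimmomatic 0.39, HISAT2 2.2.1, HTSeq 0.6.1 and edgeR, and build Rnor_6.0, are named without role in the submitters' processing notes; the strand setting is not given in the sources used here. The 5 counter rows that name no gene stayed out (11.7% to 12.9% of reads in no feature, 25.6% to 26.9% aligned to several places). Groups and replicate numbers came from sample titles. Replicates differed by more than sampling noise (chi-square per degree of freedom 4.64 to 9.10).

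Members and lists were chosen with earlier results of these data known. Counts were TMM-scaled and filtered with filterByExpr (minimum count 10, total 15), then analysed in R 4.3.3 with edgeR 4.0.16, using its robust quasi-likelihood test in 1 model of 4 group means, with Benjamini-Hochberg adjustment. Log2 CPM used a prior count of 2. The procedure was also run on counts simulated from its own model with spreads estimated here, which cannot show that these calls are right. The alternatives tried were scaling by RLE or by the upper quartile, no filter, at least 10 counts in every library, DESeq2 1.42.0, a replicate term, only the 6 libraries compared, and leaving out each library.

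Genes were named by rule: all members; from each list up to 6 called genes with the smallest p among the 4 groups, and genes that single counts refer to; and the 3 genes nearest to each called member. Mrtfb, Foxf2, Foxd3, Ep300, Kat2b, Ttn and Pecam1 were not analysed here. The libraries were strand-specific per the labels; reads of a gene and an antisense partner may not be told apart, as the counting is not stated to use strand.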

Additional observations from a re-analysis of the deposited data

How the results depend on the processing

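Of the 23 member fold changes with an unadjusted p under 0.05, none changed direction in any alternative. They were picked by that p in these same libraries, so a change of direction was unlikely from the outset. The other member fold changes were not examined for this. A 4-group test has no direction. The number of members called in K815R against LacZ was 2 in place of 1 under upper-quartile scaling, 2 without a filter, 2 under DESeq2, 2 with the replicate block and 2 when just the 6 libraries of a pair were fitted, Foxc2 being added each time. In K815R against WT it was 1 in place of 0 without a filter (Foxc2) and 1 under DESeq2 (Gata4). In labelled K815Q against WT it was 2 in place of 1 in the fit of 6 libraries (Tbx20 added), and in K815R against labelled K815Q 1 in place of 0 without a filter (Tbx5). Leaving out 1 library gave 0 to 2 members in K815R against LacZ, 1 to 3 in labelled K815Q against LacZ (3 without LacZ replicate 1, Tbx20 added), 0 to 1 in labelled K815Q against WT and 1 to 2 in the 4-group test, which gave 3 without a filter (Tbx5 added) and 3 under DESeq2 (Gata4, Tbx20 and Foxc2). The cause of these changes was not tested. Over all genes, calls without a filter were 600 in place of 348 in K815R against LacZ, 553 in place of 309 in K815R against WT, 423 in place of 151 in labelled K815Q against WT, 307 in place of 51 in K815R against labelled K815Q, and 2036 in place of 1143 in the 4-group test. In K815R against labelled K815Q they were also 96 under DESeq2, 86 with the block and 85 in the fit of 6 libraries, and in labelled K815Q against WT 232 with the block. Leaving out 1 library gave 378 to 839 calls over all genes in WT against LacZ (751 with all libraries), 173 to 364 in K815R against LacZ, 360 to 1318 in labelled K815Q against LacZ (1104), 124 to 338 in K815R against WT, 50 to 218 in labelled K815Q against WT, 11 to 98 in K815R against labelled K815Q, and 650 to 1309 in the 4-group test. Of 45 calls of list genes and Id1, 16 held in every fit that left out 1 library.

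Deviations from the group means correlated by -0.13 to 0.12 over 18 pairs of libraries of the same number. The 36 pairs of other numbers gave -0.13 to 0.15. With LacZ left aside, every same-number pair was positive, from 1.9e-04 to 0.12, and pairs of other numbers ran from -0.13 to 0.06. Same-number pairs with LacZ ran from -0.13 to 0.03. The main fit did not read the numbers as a pairing, and whether they mark one was not tested. The replicate block changed no other member count. Over all genes it gave more calls in every comparison. Besides those given above, there were 800 in place of 751 in WT against LacZ and 390 in place of 348 in K815R against LacZ. Labelled K815Q against LacZ had 1280 in place of 1104, K815R against WT 343 in place of 309, and the 4-group test 1306 in place of 1143. The cause of this rise was not tested.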
